A study of Mus musculus with 10 samples.

Results

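The 8 genes described here, Calb2, Drd2, Ociad2, Csf2rb2, Nmb, Ajap1, Calcrl and Glipr1, are markers of hilar mossy cells and were chosen by name from 24982 genes counted in the mouse dentate gyrus. The deposited table lists them as CALB2, DRD2, OCIAD2, CSF2RB2, NMB, AJAP1, CALCRL and GLIPR1. All 8 were counted in each of 10 libraries, with 17 to 2348 counts per library, and all 8 were among the 14867 genes that passed the low-count filter. The knockout mice were 5 males with a global knockout of Fndc5 (KO), the gene of the precursor of the myokine irisin. They were set against 5 wild-type males (WT). Both groups were on a C57BL/6 background and 10 weeks old, and RNA from the micro-dissected dentate gyrus of 1 mouse gave 1 library. The labels name the knockout as global and do not describe the deleted part of the gene.

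Mossy cells are the large glutamatergic neurons of the dentate hilus. They receive strong input from granule neurons through the mossy fibres, and they project along the long axis of the hippocampus and to the other hemisphere, where their axons end on the inner dendrites of granule neurons and on interneurons. They make up a small share of dentate neurons, are known for their vulnerability to seizures and ischaemia, and act on granule neurons both directly and through local inhibition. None of the 8 genes is expressed by mossy cells alone: calretinin, the protein of Calb2, is also found in newborn granule neurons and in some interneurons, and Calcrl is expressed by blood vessels. In bulk tissue, fewer cells of a type and less RNA per cell cannot be told apart.

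Libraries held 26226375 to 34514373 counts in KO mice and 26963625 to 43802079 counts in WT mice. Levels are given as CPM, a gene's counts relative to its library total after TMM scaling. Fndc5 averaged 51.3 ± 4.27 CPM in KO mice and 75.3 ± 4.60 CPM in WT mice (SD, n = 5 each), and every KO mouse lay below every WT mouse (edgeR quasi-likelihood log2 fold change -0.55, SE 0.06, Benjamini-Hochberg adjusted p 0.000495). It was the only 1 of the 14867 genes past an adjusted p of 0.05.

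Reads of 3 of the 8 genes could be taken by, or come from, a neighbour or a copy. Csf2rb2 is the mouse duplicate of Csf2rb, the common beta chain of cytokine receptors, and lies next to it on chromosome 15. Their coding sequences were 95.4% identical over 2626 aligned bases, and 518 of the 4666 windows of 75 bases in the longest Csf2rb2 transcript (11.1%) also occurred in Csf2rb. A coding stretch of 90 bases with 1 difference (GENCODE M21 transcripts, GRCm38, chr15:78292498-78292587 on the minus strand for Csf2rb2 and chr15:78340722-78340811 on the plus strand for Csf2rb) shows how close the copies are; the differing base is in capitals.
Csf2rb2: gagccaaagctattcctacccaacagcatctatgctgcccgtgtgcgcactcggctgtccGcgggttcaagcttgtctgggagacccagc
Csf2rb: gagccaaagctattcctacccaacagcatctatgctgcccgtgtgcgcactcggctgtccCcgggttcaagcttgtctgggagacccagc

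Reads were 75 bases long, and any such read from inside this stretch differs between the copies at that base alone. The Nmb gene shares 163 exonic bases (20.6% of its exon length) with Sec11a on the same strand, and Glipr1 shares 352 (22.8%) with Krr1 on the opposite strand. How such reads were counted is not given in the sources used here, so the levels of Csf2rb2, Nmb and Glipr1 are uncertain to that extent. Csf2rb, Sec11a and Krr1 are therefore given beside their neighbours. For Calb2, Drd2, Ociad2, Ajap1 and Calcrl, 0 windows of 75 bases occurred in a transcript of another gene.

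Promoter windows of RefSeq (GRCm38.p6, 250 bases before to 50 after the start) were matched for 6 of the 8 genes; Calb2 and Glipr1 had no entry. These 6 promoters differed widely in CpG content, with 3 CpG in Csf2rb2, 7 in Calcrl, 11 in Ociad2, 14 in Nmb, 23 in Drd2 and 51 in Ajap1, against a median of 7 over 32851 promoters. The lowest and the highest are shown by their 250 upstream bases, chr15:78305722-78305971 and chr4:153482831-153483080, both on the minus strand, with each CpG in capitals.
Csf2rb2: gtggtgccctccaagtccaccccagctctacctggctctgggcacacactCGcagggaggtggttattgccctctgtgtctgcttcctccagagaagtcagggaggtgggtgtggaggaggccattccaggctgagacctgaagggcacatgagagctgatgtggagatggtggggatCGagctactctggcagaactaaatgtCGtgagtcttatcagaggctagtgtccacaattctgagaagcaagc
Ajap1: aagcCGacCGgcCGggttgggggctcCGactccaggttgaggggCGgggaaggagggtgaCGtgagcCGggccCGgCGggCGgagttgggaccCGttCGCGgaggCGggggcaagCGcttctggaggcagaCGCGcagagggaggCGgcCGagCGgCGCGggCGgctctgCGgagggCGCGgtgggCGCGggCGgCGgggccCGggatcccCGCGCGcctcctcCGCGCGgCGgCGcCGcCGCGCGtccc

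The CRE palindrome TGACGTCA, searched on both strands, was in 0 of the 6 promoters and in 1.79% of all promoters. TATAAA was in 1 of the 6, that of Ociad2, and in 13.6% of all, and CCAAT was likewise in the Ociad2 promoter alone and in 37.4% of all. The Ociad2 window (chr5:73338898-73339197) lies inside the GENCODE span of the gene (chr5:73322199-73341028) and not at its upstream end. None of these letter patterns was shared by the 6 promoters, and the 8 genes lie on 8 different chromosomes.

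Compared per kilobase of exon, Calb2 was the highest of the 8 markers by its mean and Glipr1 the lowest in KO mice. In CPM per kb, Calb2 was at 19.1 ± 7.0 in KO mice and 22.9 ± 4.92 in WT mice. Ociad2 followed at 16.8 ± 1.86 in KO and 19.1 ± 3.06 in WT mice, and Ajap1 at 15.6 ± 1.36 in KO and 16 ± 1.04 in WT mice (SD, n = 5 each). Calb2 overlapped Ociad2, and Ociad2 overlapped Ajap1, in both genotypes, while Calb2 lay above Ajap1 in every WT mouse and overlapped it in KO mice. Nmb, at 5.69 ± 0.538 in KO and 5.55 ± 0.526 in WT mice, stood clear of the genes above and below it. Csf2rb2, at 2.05 ± 0.33 in KO and 1.82 ± 0.235 in WT mice, overlapped narrowly with Drd2, at 1.32 ± 0.214 in KO and 1.35 ± 0.199 in WT mice. Drd2 lay above Calcrl in KO mice and overlapped it in WT mice. The lowest were Calcrl, at 0.978 ± 0.0634 in KO and 0.939 ± 0.102 in WT mice, and Glipr1, at 0.731 ± 0.327 in KO and 0.948 ± 0.146 in WT mice, whose ranges overlapped.

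**Figure D1:**
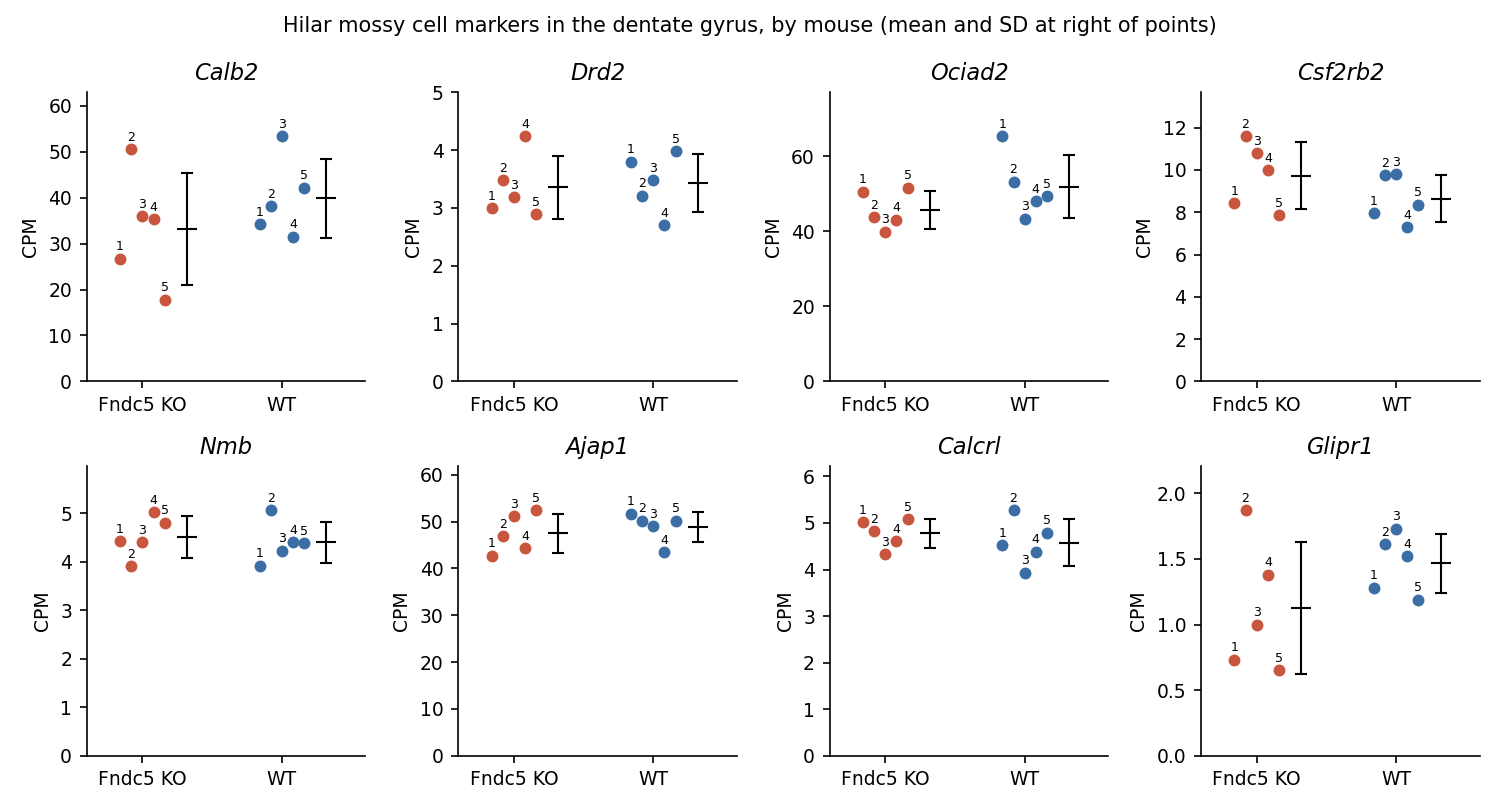
Level of each of the 8 mossy cell markers (CPM, linear axis from 0) in 5 Fndc5 KO mice and 5 WT mice; each point is 1 mouse with its number, and the bar at the right of the points is the mean with its SD. The genotypes overlap for all 8 genes, and Calb2 spreads most in absolute terms among KO mice, between 17.8 and 50.6 CPM.

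None of the 8 markers differed between the genotypes past the threshold. In the edgeR fit over all genes, 0 of 8 had an adjusted p below 0.05, against 0.00673% of all genes tested, and the adjusted p ranged from 0.789 to 0.978. At an unadjusted p below 0.05 there were likewise 0 of 8, against 6.29% of all genes (3.75% lower and 2.54% higher in KO). KO and WT mice overlapped for 8 of 8 markers, where 0.895% of all genes had groups that did not overlap. The log2 fold change (KO over WT) was negative for 5 and positive for 3, with a median of -0.04, while it was negative for 49.3% of all genes with a median of 0.002. The 95% interval lay within a 2-fold change in either direction for all 8 and within 1.5-fold for 6; over all genes those shares were 98.5% and 90.1%. The exceptions to 1.5-fold were Calb2 and Glipr1, whose intervals reached down to 0.627 and 0.542 of the WT level.

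**Figure D2:**
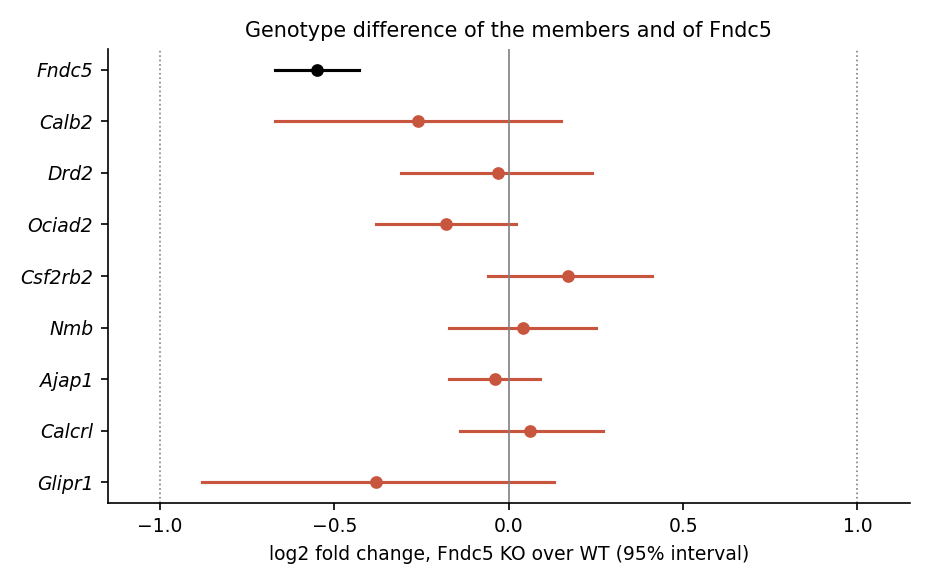
Log2 fold change of KO over WT mice for Fndc5 (black) and the 8 markers (red), with 95% intervals from the edgeR fit; dotted lines mark a 2-fold change. All 8 marker intervals include 0 and stay within the dotted lines, and that of Fndc5 runs from -0.67 to -0.43.

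Calb2 encodes calretinin, a cytosolic calcium buffer and a widely used mossy cell antigen in mice (chr8:110137502-110168210, minus strand). It was at 26.7, 50.6, 36.0, 35.3 and 17.8 CPM in KO mice 1 to 5, against 34.2, 38.1, 53.4, 31.5 and 42.2 CPM in WT mice 1 to 5. KO mouse 2 and WT mouse 3 were high, KO mouse 5 was the lowest of the 10, and the groups overlapped widely. On the log2 scale KO over WT gave -0.26 (SE 0.20, 95% interval from -0.67 to 0.15, edgeR adjusted p 0.838). The value leaned on single mice: it was -0.46 without KO mouse 2, -0.11 without KO mouse 5 and -0.13 without WT mouse 3.

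Among receptors, Drd2 encodes the dopamine D2 receptor, which couples to inhibitory G proteins and whose promoter is used to drive Cre in mossy cells (chr9:49340627-49408177, plus strand). Drd2 was at 2.99, 3.48, 3.18, 4.24 and 2.89 CPM in KO mice, against 3.80, 3.21, 3.48, 2.70 and 3.98 CPM in WT mice. KO mouse 4 was the highest of the 10 and WT mouse 4 the lowest. This amounted to a log2 fold change of -0.03 (SE 0.13, 95% interval from -0.31 to 0.24, edgeR adjusted p 0.978).

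Calcrl encodes the G protein-coupled receptor that, with a RAMP partner protein, binds CGRP or adrenomedullin (chr2:84330626-84425411, minus strand). It was at 5.02, 4.83, 4.33, 4.61 and 5.08 CPM in KO mice, against 4.53, 5.27, 3.93, 4.38 and 4.79 CPM in WT mice. The KO values lay inside the WT range, and WT mice held both the lowest and the highest value. KO mice differed from WT mice by 0.06 on the log2 scale (SE 0.10, 95% interval from -0.14 to 0.27, edgeR adjusted p 0.925).

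Csf2rb2 encodes a beta chain that in mice serves the interleukin 3 receptor (chr15:78282507-78305721, minus strand). It was at 8.42, 11.6, 10.8, 10.0 and 7.85 CPM in KO mice, against 7.97, 9.74, 9.80, 7.28 and 8.36 CPM in WT mice. KO mice 2, 3 and 4 were above every WT mouse, and KO mice 1 and 5 were within the WT range. The edgeR estimate was 0.17 on the log2 scale (SE 0.11, 95% interval from -0.06 to 0.41, edgeR adjusted p 0.806). It was 0.10 without KO mouse 2 and 0.24 without KO mouse 5. Its copy Csf2rb was at 1.36 ± 0.307 CPM in KO mice and 1.45 ± 0.206 CPM in WT mice (SD, n = 5 each), 0.153 times the CPM of Csf2rb2, with a log2 fold change of -0.12 (SE 0.18, edgeR adjusted p 0.925).

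Nmb encodes neuromedin B, a bombesin-like secreted peptide and the only peptide ligand among the 8 (chr7:80902227-80905076, minus strand). It was at 4.42, 3.91, 4.41, 5.02 and 4.81 CPM in KO mice, against 3.92, 5.06, 4.23, 4.41 and 4.38 CPM in WT mice. Both groups covered nearly the same range. Its log2 fold change of 0.04 was near 0 (SE 0.10, 95% interval from -0.17 to 0.25, edgeR adjusted p 0.961). Sec11a, a signal peptidase subunit whose exons overlap those of Nmb, was at 19.8 ± 1.28 CPM in KO mice and 18.6 ± 0.959 CPM in WT mice (log2 fold change 0.09, SE 0.06, edgeR adjusted p 0.811).

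Ajap1 encodes a membrane protein of adherens junctions whose extracellular part also binds GABA-B receptors (chr4:153373221-153482811, minus strand, on the chromosome that also carries Fndc5). It was at 42.7, 46.9, 51.1, 44.4 and 52.4 CPM in KO mice, against 51.7, 50.2, 49.0, 43.5 and 50.2 CPM in WT mice. KO mouse 5 was the highest and KO mouse 1 the lowest of the 10, and the groups overlapped. Its interval was the tightest of the 8, with a log2 fold change of -0.04 (SE 0.06, 95% interval from -0.17 to 0.09, edgeR adjusted p 0.916).

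Ociad2 encodes an OCIA domain protein of mitochondria and endosomes (chr5:73322199-73341028, minus strand). It was at 50.5, 43.7, 39.9, 43.1 and 51.6 CPM in KO mice, against 65.3, 53.2, 43.3, 48.0 and 49.4 CPM in WT mice. WT mouse 1 was the highest of the 10, and KO mice 3 and 4 were below every WT mouse. The estimate of -0.18 on the log2 scale (SE 0.09, 95% interval from -0.38 to 0.02, edgeR adjusted p 0.789) had the smallest unadjusted p of the 8 (0.0707). Without WT mouse 1 it was -0.08.

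Glipr1 encodes a protein of the cysteine-rich secretory (CAP) superfamily (chr10:111985448-112002631, minus strand). It had the lowest counts, at 0.731, 1.87, 1.0, 1.38 and 0.654 CPM in KO mice, against 1.28, 1.61, 1.73, 1.52 and 1.19 CPM in WT mice. KO mice 1, 3 and 5 were below every WT mouse and KO mouse 2 was above every one. KO over WT came to -0.38 on the log2 scale (SE 0.24, 95% interval from -0.88 to 0.13, edgeR adjusted p 0.802). It was -0.64 without KO mouse 2 and -0.25 without either KO mouse 1 or KO mouse 5. Krr1, the ribosome assembly gene on the opposite strand, was at 53.6 ± 2.2 CPM in KO mice and 54.1 ± 2.65 CPM in WT mice, 41.5 times the CPM of Glipr1. Over the 10 mice r was 0.10 for Krr1 with Glipr1, -0.33 for Sec11a with Nmb and -0.07 for Csf2rb with Csf2rb2. These values are given as a description, and whether reads were shared was not tested.

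Mice of the same genotype differed more for Calb2 than for nearly all genes of its level. The SD of log2 CPM within a genotype was 0.45 for Calb2, against an SD of 0.04 that counting error alone would give. Of 2408 genes whose mean level lay within 0.5 log2 units of it, 3 had a larger SD, and the median SD over the 2408 genes was 0.08. The SD of Calb2 was 0.56 among KO mice and 0.30 among WT mice. Ociad2 also spread widely for its level, with an SD of 0.19 that 1.74% of 2361 genes of like level exceeded. Glipr1 had an SD of 0.45 at a counting error of 0.22, and 5.25% of 895 genes of like level exceeded that SD. Its SD was 0.60 among KO mice and 0.22 among WT mice, so WT mice did not spread beyond counting error. Nmb and Calcrl were close to counting error, with SDs of 0.13 against 0.12 for both, so no difference between their mice can be resolved at this depth.

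**Figure D3:**
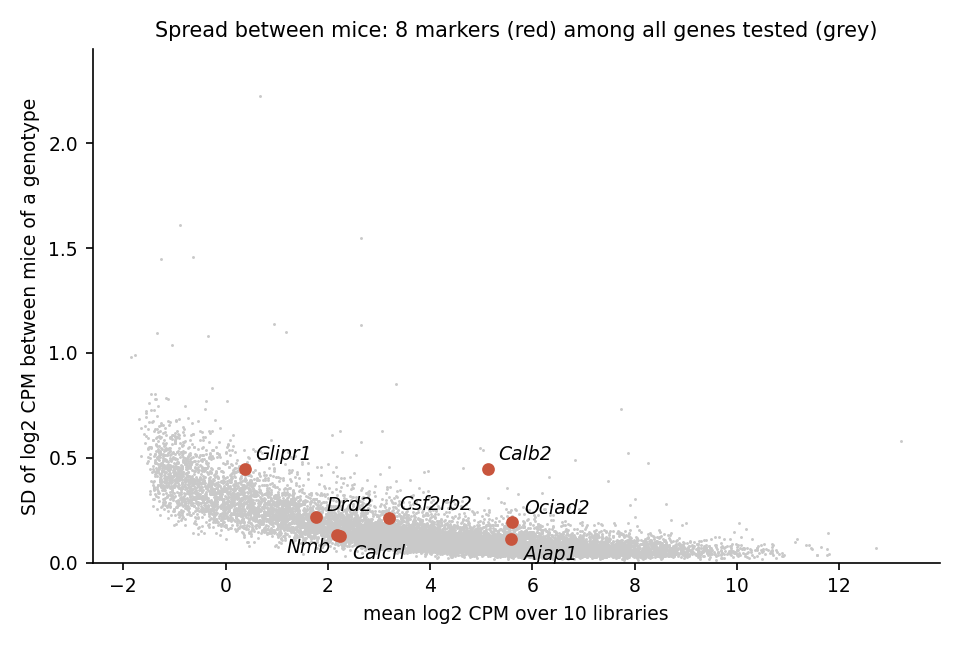
Standard deviation of log2 CPM between mice of the same genotype against mean log2 CPM, for 14867 genes (grey) and the 8 markers (red). Calb2 stands far above genes of its level with an SD of 0.45, while Nmb and Calcrl sit at 0.13 among genes of theirs.

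No common rise and fall of the 8 markers was seen over the mice. Pairs with Nmb or Calcrl could hardly show one, since both genes were close to counting error (1.1 and 1.07 times its SD). Of 28 pairs, 12 had a positive and 16 a negative Pearson r over the 10 libraries, with a median of -0.04. In this pooled form 1 pair passed after adjustment over the 28: Calb2 with Glipr1 (r = 0.85, permutation p 0.00159, adjusted p 0.0445). Its Spearman rho was 0.72 (permutation p 0.0224, adjusted p 0.514), and r was 0.70 over the 8 mice left without KO mouse 5 and WT mouse 3, the farthest from the median of Calb2. With each genotype centred on its own mean, a form added after the pooled values were seen, this pair had r = 0.82 and did not pass (exact permutation p 0.0168 within genotypes, adjusted p 0.217).

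Calb2 and Csf2rb2 had r = 0.61 over the 10 mice (permutation p 0.0579, adjusted p 0.541; Spearman rho 0.64, permutation p 0.0543, adjusted p 0.514), and r = 0.61 without the same 2 mice. Centred by genotype, this was the 1 pair of the 28 that passed, at r = 0.89 (exact permutation p 0.00132 within genotypes, adjusted p 0.0369). That adjustment covers the 28 pairs of the centred form alone, a form added after the pooled values were seen. Both genes were high in KO mouse 2 and WT mouse 3, and both were lowest among KO mice in KO mouse 5. Ociad2 and Csf2rb2 had the most negative pooled value, at r = -0.64 (permutation p 0.0427, adjusted p 0.541; Spearman rho -0.64, permutation p 0.055, adjusted p 0.514), and -0.57 without KO mouse 3 and WT mouse 1. Drd2 had r = 0.51 with Calb2 (permutation p 0.131, adjusted p 0.698; Spearman rho 0.54, permutation p 0.115, adjusted p 0.642), and 0.44 without KO mouse 5 and WT mouse 3.

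**Figure D4:**
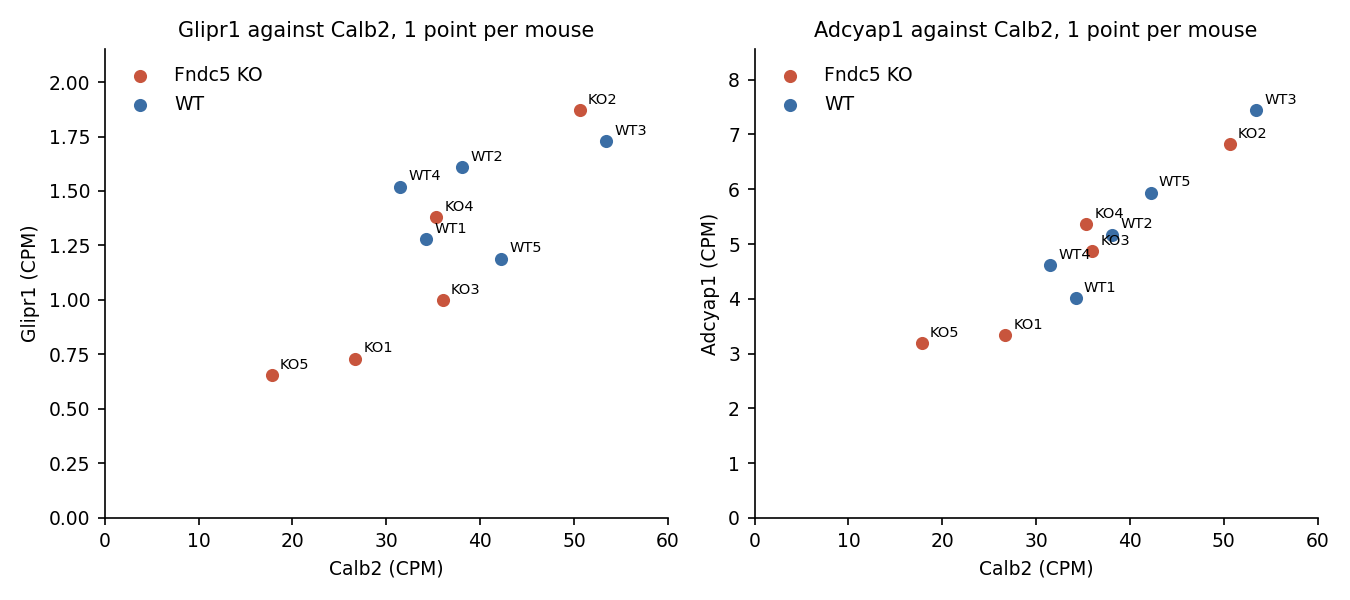
Level of Glipr1 (left) and of Adcyap1 (right) against Calb2, all in CPM on linear axes, with 1 labelled point per mouse, KO in red and WT in blue. KO mice 1 and 5 are low and KO mouse 2 and WT mouse 3 high on both axes of both plots.

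The genes whose pattern over the 10 libraries was most like the mean z score of the 8 markers were Gpr183 (r = 0.93), Unc79 (0.89), Uap1 (0.88), Ncf4 (0.87) and Parp14 (0.87), given as a description. That mean was lowest in WT mouse 4 (-0.61) and highest in WT mouse 2 (0.66). Taken singly, which was chosen after these values were seen, Calb2 was closely followed by Adcyap1 (r = 0.93 over the 10 libraries). Adcyap1 encodes the neuropeptide PACAP, which mossy cells of the mouse are known to express. It was at 3.34, 6.83, 4.87, 5.36 and 3.19 CPM in KO mice, against 4.01, 5.17, 7.44, 4.62 and 5.94 CPM in WT mice, with a log2 fold change of -0.21 (SE 0.19, edgeR adjusted p 0.870). As with Calb2, WT mouse 3 was the highest and KO mouse 5 the lowest of the 10. Ociad2 followed other genes: Spock1 (r = 0.99), Kcnq5 (0.97), Osbpl1a (0.97), Degs1 (0.96) and Elfn1 (0.96), all 5 of which were highest in WT mouse 1.

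Other cell types that express some of these genes were read from their own marker lists, and their part in the spread of Calb2 was not tested. The 12 GABAergic interneuron markers summed to 681.6 to 734.6 CPM in KO mice and 692.2 to 816.8 CPM in WT mice. Gad1 averaged 273 CPM in KO mice and 289 CPM in WT mice, and the peptide gene Vip 2.64 and 3.25 CPM. Genes as low as Vip therefore weigh little in the sum. That sum was highest in WT mouse 1, where Ociad2 was highest too, and it was 699.5 CPM in KO mouse 2 and 692.2 CPM in WT mouse 3, the mice with the most Calb2. Markers were lower in KO for 10 of 12, against 49.3% of all genes, with a median log2 fold change of -0.10, and 0 passed. At an unadjusted edgeR p below 0.05 there were 3 of 12, against 6.29% of all genes. Values of Gad1 (-0.08, SE 0.04), Dlx1 (-0.28, SE 0.12) and Vip (-0.30, SE 0.13) each had an edgeR adjusted p of 0.788. WT mouse 1 had the most Dlx1, at 12.5 CPM against 7.73 to 9.81 CPM in the other WT mice. It also had the most Vip, at 4.26 CPM against 2.62 to 3.34 CPM. For Gad1 it was at 300 CPM, close to 299 CPM in WT mouse 2.

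Newborn neurons also make calretinin. The 10 immature neuron markers summed to 673.0 to 760.0 CPM in KO mice and 648.4 to 729.7 CPM in WT mice. Their sum was 673.0 CPM in KO mouse 2, the lowest of the KO mice, and 711.6 CPM in WT mouse 3, the second highest of the WT mice. Neurod2 made up much of that sum, and at 319 CPM it was lowest among KO mice in KO mouse 2. Single markers differed: Dcx (23.6 CPM) and Dpysl3 (63.7 CPM) were highest among KO mice in KO mouse 2. In WT mouse 3 these 2 were at 24.7 and 62.6 CPM. In KO mice 6 of 10 were lower, with a median of -0.01 and 0 past the threshold. Dpysl3, a growth cone protein, was at 58.4 ± 4.19 CPM in KO mice and 64.8 ± 2.82 CPM in WT mice (log2 fold change -0.15, SE 0.05, edgeR adjusted p 0.788), and Dcx at 21.0 ± 1.78 and 23.2 ± 2.03 CPM in KO and WT mice (-0.14, SE 0.07, edgeR adjusted p 0.789). The transcription factor gene Neurod2 and the prokineticin receptor gene Prokr2 had positive values, of 0.12 (SE 0.06, edgeR adjusted p 0.792) and 0.18 (SE 0.13, edgeR adjusted p 0.835).

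Tissue next to the hilus was read in the same way. CA3 and CA2 pyramidal markers summed to 596.0 to 619.1 CPM in KO mice and 604.2 to 616.6 CPM in WT mice, with 6 of 10 lower in KO, a median of -0.02 and 0 past the threshold. Grik4, a kainate receptor subunit, had a log2 fold change of -0.13 (SE 0.05) and Amigo2, a CA2 adhesion gene, one of -0.23 (SE 0.11), each at an edgeR adjusted p of 0.788. Necab2 was at -0.18 (SE 0.09) and Rgs14, a CA2 signalling regulator, at 0.09 (SE 0.06), with edgeR adjusted p of 0.789 and 0.806. CA1 markers summed to 91.8 to 101.1 CPM in KO mice and 88.4 to 108.9 CPM in WT mice, with 6 of 8 lower, a median of -0.02 and 0 past the threshold. Pou3f1, a transcription factor gene of CA1, was at 4.20 ± 0.890 CPM in KO mice and 3.09 ± 0.507 CPM in WT mice (log2 fold change 0.46, SE 0.15, edgeR adjusted p 0.788), the smallest unadjusted p of that list (0.0067 from edgeR). Granule neuron markers were higher in KO for 7 of 10 (median 0.06, 0 past the threshold), and their sum was lowest in WT mouse 1 (1679 CPM, the other WT mice at 1876 to 1924 CPM and KO mice at 1824 to 1979 CPM).

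Thalamus, which holds calretinin neurons, and Drd2-rich striatum were read from marker lists too. Of the 10 thalamus and habenula markers, Gbx2, Shox2, Gpr151 and Pou4f1 had at most 7 counts in any library and were not tested, and the sum over the list was 100.8 to 123.6 CPM in KO mice and 98.0 to 112.3 CPM in WT mice. KO mouse 5, with the least Calb2, had the highest thalamus and habenula sum, a rank that rested on Prkcd. Prkcd was at 52.7 CPM there, against 27.6 to 39.4 in the other KO mice and 31.5 to 34.5 in WT mice. Nwd2 of the same list was at 53.9 CPM there, within the range of the other KO mice (49.1 to 58.9 CPM). Of the 7 striatum markers, Isl1 had at most 1 count in a library, and the sum was 86.7 to 95.8 CPM in KO mice and 79.7 to 100.6 CPM in WT mice. These 2 lists had 0 genes past the threshold, with medians of -0.01 (4 of 6 lower in KO) and -0.11 (5 of 6 lower). Endothelial and mural markers, relevant to Calcrl, summed to 163.9 to 214.7 CPM in KO mice and 168.4 to 220.6 CPM in WT mice, and microglia markers to 347.7 to 400.0 CPM in KO mice and 357.6 to 398.7 CPM in WT mice, with medians of -0.00 (6 of 11 lower) and 0.04 (3 of 10 lower) and 0 past the threshold in both.

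Partners and ligands of the 8 gene products also had 0 genes past the threshold. In the CGRP and adrenomedullin system, 5 of 10 genes passed the low-count filter, 3 higher and 2 lower in KO, with a median of 0.05. Ramp3 encodes a partner that turns the Calcrl protein into an adrenomedullin receptor, and the gene is also on the thalamus and habenula list. Ramp3 was at 4.08 ± 0.589 CPM in KO mice and 3.21 ± 0.479 CPM in WT mice (log2 fold change 0.34, SE 0.13, unadjusted edgeR p 0.0149, edgeR adjusted p 0.788). Ramp1, the CGRP receptor partner, was at 43.1 ± 2.26 CPM in KO mice and 41.7 ± 1.09 CPM in WT mice (0.05, SE 0.04), and Ramp2 at 18.3 ± 3.25 and 17.4 ± 2.21 CPM in KO and WT mice (0.08, SE 0.11). The CGRP genes Calca and Calcb had at most 8 and 6 counts in a library and were not tested.

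Of the bombesin-like system, 2 of 4 genes were tested, both lower in KO with a median of -0.24. Grp, gastrin-releasing peptide, was at 3.65 ± 1.25 CPM in KO mice and 4.61 ± 1.27 CPM in WT mice (log2 fold change -0.32, SE 0.22, edgeR adjusted p 0.807), and Nmbr, the neuromedin B receptor, at 1.38 ± 0.211 and 1.55 ± 0.149 CPM in KO and WT mice (-0.15, SE 0.15, edgeR adjusted p 0.878). Of the dopamine system, 11 of 14 genes were tested, 5 higher and 6 lower in KO, with a median of -0.01. The smallest p among them belonged to Rgs4, a GTPase activator that shortens D2-type signalling, at 89.8 ± 5.93 CPM in KO mice and 98.3 ± 6.34 CPM in WT mice (-0.13, SE 0.05, unadjusted edgeR p 0.0204, edgeR adjusted p 0.788). Drd1 had a log2 fold change of -0.28 (SE 0.15) and Drd5 one of 0.12 (SE 0.08), at edgeR adjusted p of 0.789 and 0.806. Th, the dopamine synthesis enzyme, had at most 7 counts in a library.

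The list of the beta chain cytokine system, which holds Csf2rb, receptor partner chains, their cytokines and downstream signalling genes, had 4 higher and 2 lower of 6 tested, with a median of 0.05. Il3ra, the specific interleukin 3 receptor chain, was at 2.33 ± 0.40 CPM in KO mice and 2.04 ± 0.32 CPM in WT mice (log2 fold change 0.18, SE 0.15, edgeR adjusted p 0.857), and the cytokine genes Csf2 and Il3 had 0 counts in all 10 libraries. Among GABA-B receptor genes and other Ajap1 partners, 2 of 9 tested were higher and 7 lower in KO, with a median of -0.02. Kctd8, an auxiliary GABA-B subunit, was at 2.31 ± 0.362 CPM in KO mice and 1.88 ± 0.223 CPM in WT mice (0.29, SE 0.14, edgeR adjusted p 0.789). Pianp, which like Ajap1 binds the GABA-B receptor, had a log2 fold change of 0.09 (SE 0.04, edgeR adjusted p 0.789).

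**Figure D5:**
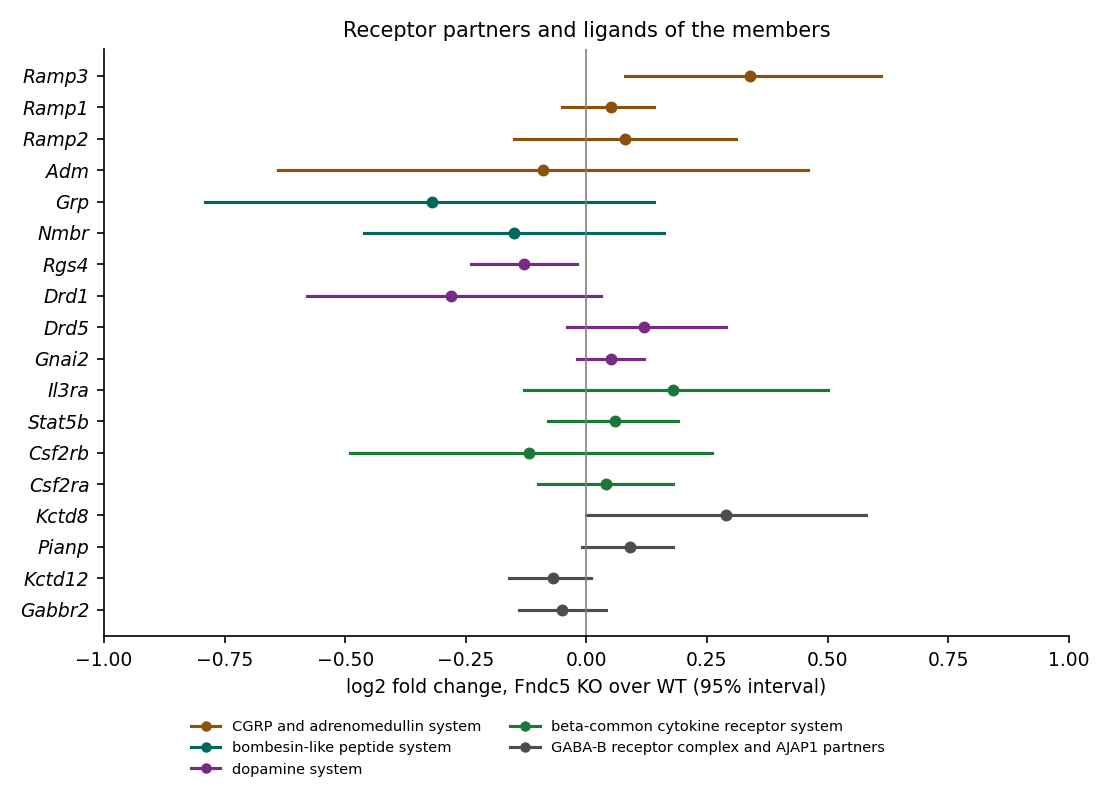
Log2 fold change of KO over WT mice with 95% intervals for up to 4 genes of each ligand and receptor list, those with the smallest p, coloured by list. Ramp3 at 0.34 and Rgs4 at -0.13 have intervals that leave out 0, and neither passes after adjustment over all genes.

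Related genes and other mossy cell antigens had 0 genes past the threshold. The EF-hand calcium buffers were 1 higher and 2 lower of 3 tested (median -0.02), the OCIAD and GLIPR paralogs 1 higher and 1 lower of 2 (median -0.01), and the antigens all 3 lower (median -0.04). Calb1 of granule neurons was at 213 ± 9.90 CPM in KO mice and 216 ± 12.5 CPM in WT mice (log2 fold change -0.02, SE 0.04, edgeR adjusted p 0.950). Secretagogin (Scgn) was at 3.27 ± 0.525 CPM in KO mice and 2.60 ± 0.549 CPM in WT mice (0.32, SE 0.15, edgeR adjusted p 0.788). The paralog Ociad1 was at 230 ± 3.39 and 236 ± 4.93 CPM in KO and WT mice (-0.04, SE 0.03, edgeR adjusted p 0.858). The AMPA receptor subunits Gria2 and Gria3, used to stain mossy cells, had log2 fold changes of -0.03 (SE 0.03) and -0.04 (SE 0.03), at edgeR adjusted p of 0.911 and 0.869. They averaged 990 and 224 CPM in KO mice and 1010 and 230 CPM in WT mice. Bulk counts do not show how much of this came from mossy cells. Cartpt, a peptide gene used as a mossy cell marker in humans, was at 0.992 ± 0.224 CPM in KO mice and 1.07 ± 0.119 CPM in WT mice (-0.12, SE 0.18, edgeR adjusted p 0.927).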

How the data were processed

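Values are the authors' unnormalized counts, deposited as 1 column per mouse and 1 row per symbol. Cufflinks 2.2.1, STAR 2.5.1b and mm10 are named, per the submitters' processing notes, with no role given. Per the labels' protocols, 500 ng of RNA per mouse went into a stranded poly(A) kit, sequenced as single reads of 75 bases. The strand setting of counting is not given in the sources used here. Genes were filtered with filterByExpr, scaled by TMM and compared with edgeR 4.0.16 (glmQLFit, glmQLFTest) in R 4.3.3, genotype alone in the model, with Benjamini-Hochberg adjustment over 14867 genes at 0.05; intervals are 95%. Log2 CPM used a prior count of 2. Pairs of the 8 genes were tested over mice with 100000 permutations, or, centred by genotype, all 14400 orders. Exon lengths and coordinates are from GENCODE M21 (GRCm38, the assembly of mm10). Every pair of same-genotype libraries differed by more than counting noise (chi-square per degree of freedom at least 4.63). Alternatives were DESeq2 1.42.0, upper-quartile scaling, no filter, 1 CPM in 5 libraries, limma-voom (limma 3.58.1), the mouse number as a block and each library left out. The 8 genes and the lists were chosen with earlier results of these data known. Genes named are Fndc5, the 8, up to 4 per list with the smallest p, and the 5 most like their mean; others were chosen after their values were seen. The labels say that each library is 1 mouse and name no litter or batch.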

Additional observations from a re-analysis of the deposited data

Results flagged for a closer look

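For 69 named genes, each genotype's 5 mice were checked for 1 mouse far from the other 4, and 6 of 138 groups had one, where chance gives about 6.9. None of the 6 was among the 8 mossy cell markers. In KO mice, P2ry12 was at 22.7 CPM in mouse 3 (the others at 25.9 to 26.8) and Tmem119 at 17.2 CPM in mouse 1 (the others at 15.4 to 15.5). In WT mice, Nmbr was at 1.82 CPM in mouse 2 (the others at 1.46 to 1.52), Neurod2 at 290 CPM in mouse 2 (the others at 336 to 352), Lct at 231 CPM in mouse 3 (the others at 210 to 215) and Csf1r at 83.4 CPM in mouse 5 (the others at 74.2 to 75.8).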

How the results depend on the processing

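Over 16 alternatives, 0 of the 8 markers passed an adjusted p of 0.05, and the lowest adjusted p was 0.279 (Ociad2 with the mouse number as a block). Of 128 marker values, 122 kept their sign. Drd2 turned to 0.01 without KO mouse 1, KO mouse 5 or WT mouse 1 and to 0.02 without WT mouse 5, and Nmb to -0.005 without KO mouse 4 and -0.001 without WT mouse 1; leaving out single libraries gave -0.13 to 0.02 for Drd2 and -0.005 to 0.09 for Nmb. The median log2 fold change over the markers was -0.09 to 0.00 when single libraries were left out. In each alternative it stayed within 0.13 of the main value. That bound is the SD within genotypes of the markers' mean log2 CPM, and not an SD of this median. Markers at an unadjusted p under 0.05 numbered 1 with no low-count filter (Ociad2, against 5.74% of all genes in that fit), 2 with the replicate block (Ociad2 and Glipr1, against 10.0%) and 0 to 2 when single libraries were left out. They were 2 without KO mouse 2 (Calb2 and Glipr1, against 8.27% of all genes), 2 without KO mouse 5 (Ociad2 and Csf2rb2, against 6.30%), and Ociad2 alone without KO mouse 1 (against 4.74%) or WT mouse 3 (against 5.64%). Genes past the threshold numbered 3 with DESeq2, 8 with the replicate block, and 1 to 3 when single libraries were left out (3 without WT mouse 1, 2 without KO mouse 2); the cause was not tested. Mice were treated as unpaired because the labels name no litter or batch shared by same-numbered mice. Same-numbered mice correlated at 0.209, 0.204, 0.108, 0.00901 and 0.0282, all positive but not every pair above 0.1. Each mouse was set against the 5 mice of the other genotype, and 6 of 10 correlated best with their own number. This is a hint of pairing from the data and not the design. The library names also alternate WT and KO by mouse number. Whether the mice were paired was not tested. Depth limits Glipr1 most, with 17 to 76 counts per library.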
